A study of Danio rerio with 6 samples.

Results

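The 7 genes described here are markers of myeloid cells and of leukocytes in general, read out in sorted zebrafish thrombocytes. The genes were chosen with earlier results of these data known, and all 7 are reported. They were taken by Ensembl identifier and are 7 of the 32520 genes in the count table. They are mpx (ENSDARG00000019521) and lyz (ENSDARG00000057789), which encode enzymes of neutrophil granules, mpeg1.1 (ENSDARG00000055290), a macrophage gene, coro1a (ENSDARG00000054610) and lcp1 (ENSDARG00000023188), which encode actin-binding proteins of leukocytes, and spi1b (ENSDARG00000000767) and cebpa (ENSDARG00000036074), which encode transcription factors.

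Thrombocytes are the nucleated blood cells that do in fish what platelets do in mammals. The miR-150 libraries (n = 3) came from transgenic larvae with -6.0itga2b:miR-150-tagRFP, in which the promoter of the thrombocyte gene itga2b drives miR-150 together with the red protein tagRFP. The control libraries (n = 3) came from transgenic larvae with -6.0itga2b:tagRFP, which lacks the microRNA. All larvae carried the green reporter -6.0itga2b:EGFP as well, were kept in 1-phenyl 2-thiourea to block pigment, and were dissociated at 5 days after fertilization, and cells positive for both colours were sorted. The same promoter fragment thus drives the microRNA and both reporters used for the sort, and how many larvae or clutches made up a library is not given in the labels.

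In zebrafish larvae, neutrophils carry myeloperoxidase and lysozyme in their granules, and macrophages transcribe mpeg1.1, which encodes a pore-forming protein. Spi1b, also called Pu.1, and Cebpa act early in the making of both lineages, while coro1a and lcp1 are transcribed by leukocytes of many kinds. Several of these genes are also active outside myeloid cells, for example cebpa in the liver. The sort asked for both itga2b reporters and not for any myeloid marker.

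The libraries held between 12972258 and 22150519 counts. The thrombocyte label was set beside 7 marker genes. Levels are in CPM (read counts relative to library size, after normalisation by edgeR's TMM factors). The summed level of the 7 was 6925, 7487 and 2354 CPM in miR-150 replicates 1 to 3, against 9885, 6243 and 5364 CPM in control replicates 1 to 3. Of this, itga2b alone gave 4694, 4726 and 1291.5 CPM in the miR-150 libraries and 6171, 3638 and 3387 CPM in the controls. The sort used reporters driven by its promoter, so itga2b is no separate check of the label. Of the 7 markers only p2ry12, the receptor in the series title, was at 0 counts in all 6 libraries. The 4 keratins of the epidermis list summed to 8902, 7593 and 3065 CPM in miR-150 replicates 1 to 3, against 661, 11092 and 16362 CPM in control replicates 1 to 3, which was above the thrombocyte sum in all libraries but control replicate 1. These sums are not per transcript length and give no shares of cells, and the part of epidermal cells in the results was not tested. The library with the lowest thrombocyte sum was miR-150 replicate 3, so results are also given without it where it moves them. The row of the mir150 gene itself held 0 counts in every library and therefore does not check the genotype. The extraction and cDNA kits named in the labels do not say whether a microRNA precursor would be counted.

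The libraries fell into different patterns for the 7 genes. The neutrophil genes mpx and lyz and the regulator spi1b were highest in miR-150 replicate 2 and at or near 0 in most other libraries. Even there lyz and spi1b were low, at 1.55 and 2.72 CPM. mpx was also read at 20.4 CPM in miR-150 replicate 1 and at 6.08 CPM in control replicate 1. The macrophage gene mpeg1.1 was at 0 throughout. The pan-leukocyte genes coro1a and lcp1 had counts in all 6 libraries, and so did cebpa, which was highest in a control. Of the 6 genes with any count, 5 had their highest level in miR-150 replicate 2. For comparison, 11.3% of all genes with a count had their highest level there.

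**Figure D1:**
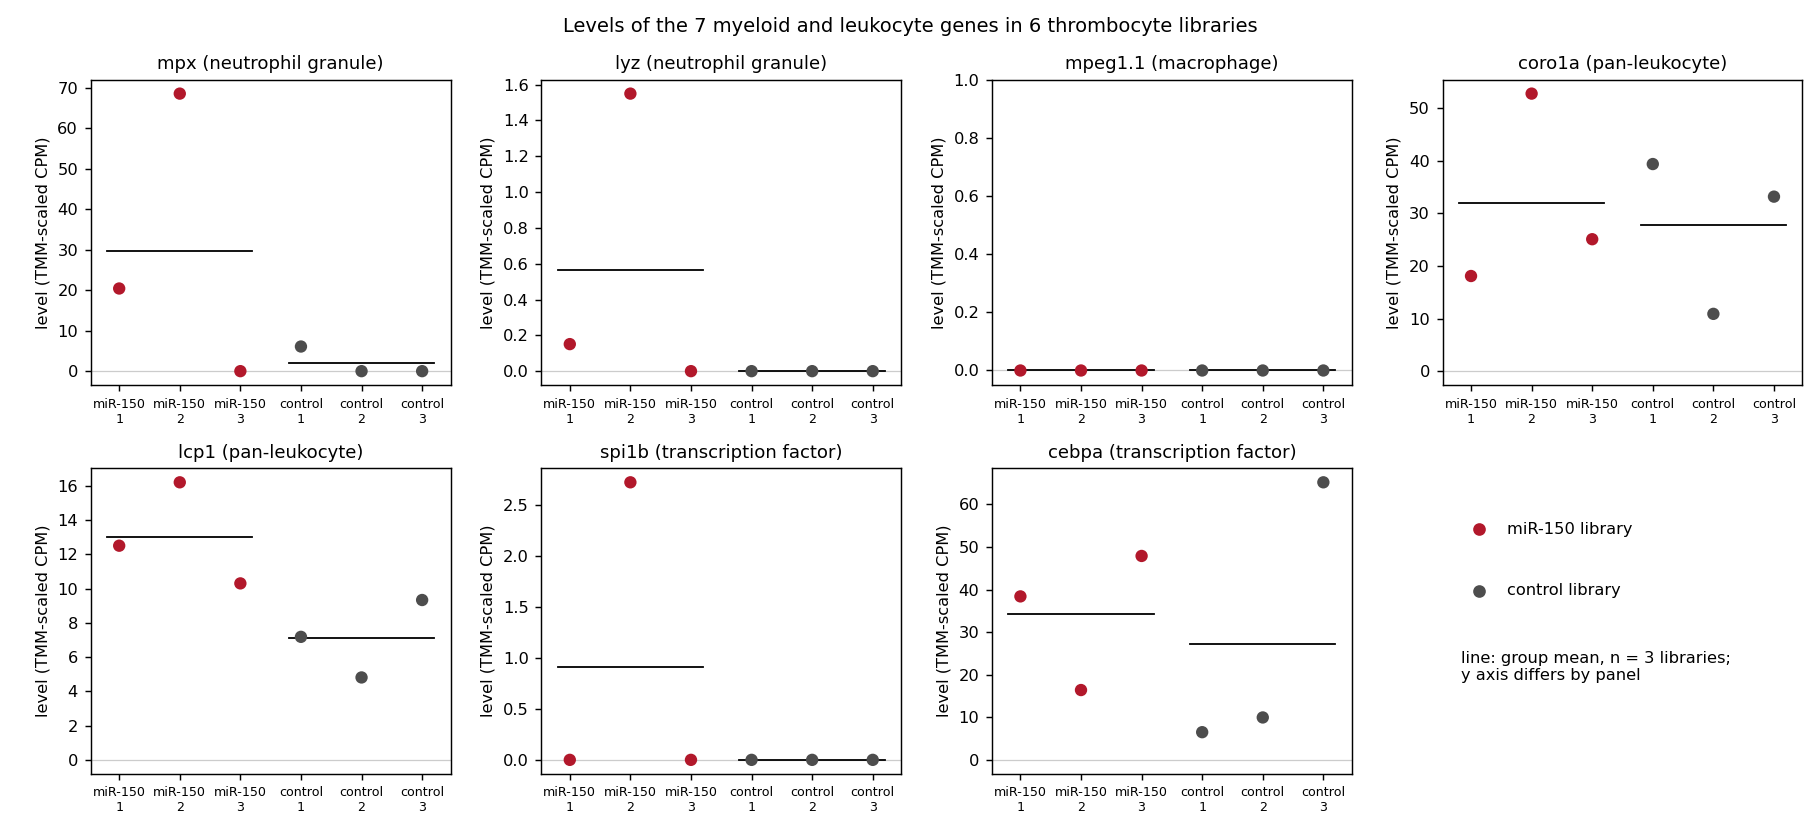
Level of each of the 7 genes (TMM-scaled CPM, linear y axis that differs between panels) in the 3 miR-150 libraries and the 3 control libraries. Points are single libraries and horizontal lines are group means. mpx, lyz, coro1a, lcp1 and spi1b peak in miR-150 replicate 2, cebpa peaks in control replicate 3 and mpeg1.1 is at 0 in each library.

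mpx encodes the myeloperoxidase of neutrophil granules. It had 406, 1286 and 0 counts in miR-150 replicates 1 to 3, and 116, 0 and 0 counts in control replicates 1 to 3. As levels these were 20.4, 68.5 and 0 CPM in the miR-150 libraries, against 6.08, 0 and 0 CPM in the controls. Replicates 1 and 2 of the miR-150 group were above every control, and replicate 3 was level with the 2 controls at 0, so the groups overlapped.

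The mean mpx level was 29.65 ± 35.2 CPM in miR-150 libraries and 2.03 ± 3.51 CPM in control libraries (SD, n = 3 each). The log2 fold change was 3.86 with a standard error of 2.64, and the adjusted p was 0.988 (edgeR quasi-likelihood test, Benjamini-Hochberg over 15722 genes). Its 95% interval ran from -2.34 to 10.07, so the difference did not exceed the spread between libraries. Without miR-150 replicate 2 the log2 fold change was 2.33, and without control replicate 1 both remaining controls were at 0. Without miR-150 replicate 3 it was 4.45, with an unadjusted p of 0.108 in edgeR. The groups then no longer overlapped, as for the 11.5% of all genes tested that were higher without overlap in that setting. The name table used here gives the symbol EPX to the mpx identifier and to ENSDARG00000012535 as well. That other gene had 375, 386 and 218 counts in miR-150 replicates 1 to 3, and 221, 355 and 694 counts in control replicates 1 to 3, so it was read in the libraries where mpx was at 0 and was highest in a control. The mpx values are those of its own identifier only. In bulk material such as this, fewer cells of a type and less RNA per cell cannot be told apart.

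lyz encodes lysozyme, a bacteria-digesting enzyme. It had 3, 29 and 0 counts in miR-150 replicates 1 to 3, and 0 counts in each control. The 29 counts correspond to 1.55 CPM, with an exact Clopper-Pearson 95% interval from 1.04 to 2.22 CPM that covers counting error only. For counts of 0 a floor of 3 counts was used, which is between 0.147 and 0.201 CPM in the controls. The exact 95% upper limits for lyz were somewhat higher, at 0.193, 0.247 and 0.18 CPM in control replicates 1 to 3. Pooled over the whole group, the lyz level of the miR-150 libraries was 11.1-fold the floor of 3 counts over the controls. This ratio carries neither the counting error of the miR-150 libraries nor the spread between libraries. It rests on replicate 2, since without it the group held 3 counts, which is the floor itself. lyz had too few counts to pass the filter on low counts and was not tested.

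The share of lyz in the joint counts of both neutrophil genes was small wherever either was read, in counts that are not scaled by transcript length. lyz made up 0.733% of these counts in miR-150 replicate 1 (exact 95% interval 0.152 to 2.13%) and 2.21% in replicate 2 (1.48 to 3.15%). In control replicate 1, with 116 mpx counts, it made up 0% with an upper limit of 3.13%. The 3 intervals overlap.

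Other neutrophil genes were read from a list of 12 symbols, of which 10 could be tied to 1 identifier each. In miR-150 replicate 2, 9 of the 10 had 5 counts or more, against 6 in replicate 1 and 3 in replicate 3, and 5, 4 and 3 in control replicates 1 to 3. Over the whole table, 17805, 16127 and 14091 genes had 5 counts or more in miR-150 replicates 1 to 3. In control replicates 1 to 3 these were 14078, 15329 and 17185 genes. Of the 10 list genes, 7 had their highest level in miR-150 replicate 2. mmp13a, npsn, csf3r and cxcr1 were picked out after their values were seen, because each was counted mainly or only in 1 library. mmp13a, which encodes a collagenase, had 696 counts in miR-150 replicate 2 and 0 in the other 5 libraries. npsn, which encodes the protease nephrosin, had 12, 416 and 0 counts in miR-150 replicates 1 to 3, against 0, 15 and 0 in control replicates 1 to 3. csf3r, the receptor for the granulocyte growth factor, had 20 counts in miR-150 replicate 2 and none elsewhere. cxcr1, a chemokine receptor gene, instead had 17 counts in miR-150 replicate 3 alone.

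The first 3 neutrophil list genes by mean CPM were srgn, mpx and mmp9. srgn, which encodes the granule proteoglycan core serglycin, was read in every library, at 1021, 1425 and 816.9 CPM in miR-150 replicates 1 to 3 and 2282, 1236 and 878.3 CPM in control replicates 1 to 3. mmp9, which encodes a gelatinase, had 34, 333 and 0 counts in miR-150 replicates 1 to 3. Its counts in control replicates 1 to 3 were 63, 446 and 0, so a control held the most. Of the 6 list genes that passed the filter, 4 had a positive and 2 a negative log2 fold change, with a median of 0.79 beside 0.044 over all 15722 genes, and 0 were called.

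mpeg1.1 had 0 counts in all 6 libraries, out of 106982640 counts in total. The floor of 3 counts is a level of 0.0281 CPM over the libraries together. The name table gives the symbol MPEG1 to 3 identifiers, and another of them, ENSDARG00000043093, did have reads. It held 193, 238 and 0 counts in miR-150 replicates 1 to 3, and 0, 497 and 1137 counts in control replicates 1 to 3. The statement about mpeg1.1 is therefore limited to its own identifier, and how reads of similar copies were assigned is not given in the sources used here.

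The macrophage list held 12 symbols, of which 10 could be tied to an identifier. Of these, 5 were at 0 in every library and are named for that: mpeg1.1, the growth factor receptor gene csf1rb, the antigen presentation gene cd74a, and the complement genes c1qa and c1qb. The summed level of the list was 1.96, 4.85 and 0 CPM in miR-150 replicates 1 to 3, and 0.839, 0.0669 and 9.08 CPM in control replicates 1 to 3. These sums leave out mpeg1.2 and mfap4, which were not tied to an identifier. They also leave out ENSDARG00000043093, with 193, 238 and 0 counts in miR-150 replicates 1 to 3, and 0, 497 and 1137 in control replicates 1 to 3. Whether this identifier is mpeg1.2 cannot be told from the name table. Its 1137 counts in control replicate 3 exceeded those of every matched gene there, of which csf1ra had the most, at 72 counts. The low sums are thus limited to the 10 genes matched. The highest sum thus lay in control replicate 3, where 5 of the 10 genes had 5 counts or more, beside 17185 of all 32520 genes. The first 3 by mean CPM were ctss2.1, csf1ra and grna, a cathepsin, growth factor receptor and granulin gene. csf1ra had 0 counts in each miR-150 library, and 9, 0 and 72 counts in control replicates 1 to 3. marco, named after its values were seen, had 28 counts in control replicate 3 and none elsewhere. Only ctss2.1 had enough counts to be tested, with a log2 fold change of 0.95 and an adjusted p of 0.995 in edgeR.

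**Figure D2:**
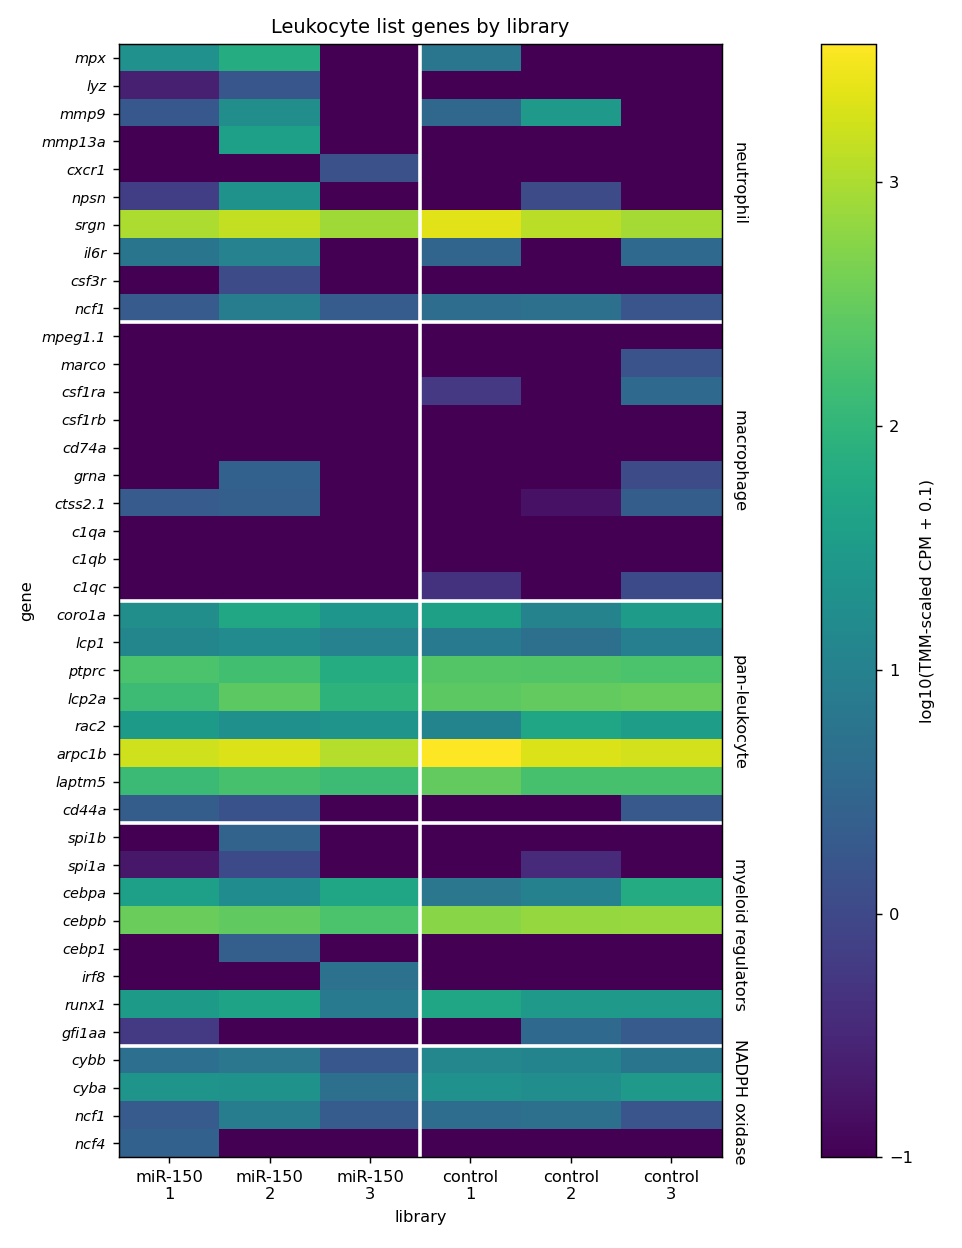
Level of the genes in the 5 leukocyte lists, as log10 of TMM-scaled CPM plus 0.1, with genes in rows grouped by list and libraries in columns, miR-150 first. The darkest cells are 0 counts. A run of neutrophil genes is brighter in miR-150 replicate 2, the macrophage rows are mostly dark, and srgn, arpc1b and cebpb are bright in all 6 libraries. ncf1 stands in 2 lists.

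coro1a encodes coronin, which binds actin in leukocytes. It had 18.1, 52.8 and 25.1 CPM in miR-150 replicates 1 to 3, against 39.4, 10.9 and 33.2 CPM in control replicates 1 to 3. The highest value was in a miR-150 library and the lowest in a control, and the groups overlapped over most of their range. The means were 32.0 ± 18.3 CPM in miR-150 libraries and 27.8 ± 15.0 CPM in control libraries (SD, n = 3 each). The log2 fold change was 0.20 with a standard error of 0.640 and an adjusted p of 0.995 in edgeR, and its 95% interval ran from -1.30 to 1.70. The direction was not stable: the log2 fold change was -0.37 without miR-150 replicate 2 and -0.22 without control replicate 2. With no scaling factor it was -0.04. That scaling also moved the median over all genes to -0.153.

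lcp1 encodes L-plastin, a bundler of actin filaments used as a general leukocyte marker. It had 248, 303 and 139 counts in miR-150 replicates 1 to 3, and 137, 72 and 191 counts in control replicates 1 to 3. Scaled to library size these were 12.5, 16.2 and 10.3 CPM in the miR-150 libraries, against 7.18, 4.81 and 9.33 CPM in the controls. All 3 miR-150 libraries were above all 3 controls, by the narrow gap between 10.3 and 9.33 CPM. lcp1 was the only one of the 4 genes tested whose groups did not overlap in this way. Among all genes tested, 7.64% were higher without overlap.

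The mean lcp1 level was 12.96 ± 2.97 CPM in miR-150 libraries and 7.11 ± 2.26 CPM in control libraries (SD, n = 3 each). The log2 fold change of 0.87, a 1.82-fold higher level, had a standard error of 0.658 and an adjusted p of 0.988 in edgeR, and its 95% interval ran from -0.68 to 2.41. It kept its direction with each library left out, between 0.62 and 1.06 on the log2 scale. DESeq2 gave an adjusted p of 0.856.

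Most of the other pan-leukocyte genes had negative log2 fold changes, none past the test. Of 10 listed symbols 8 could be tied to an identifier and all 8 were tested. With coro1a and lcp1 included, 3 had a positive and 5 a negative log2 fold change, their median was -0.45, and 0 were called. The thrombocyte markers leaned the same way: all 6 that were tested had a negative log2 fold change, with a median of -0.42 and 0 called. By mean CPM the first 3 were arpc1b, lcp2a and laptm5. arpc1b, which encodes a subunit of the actin-nucleating Arp2/3 complex, had 1748, 2095 and 1152 CPM in miR-150 replicates 1 to 3, against 3699, 2156 and 1781 CPM in control replicates 1 to 3. lcp2a, which encodes a signalling adaptor of platelets and lymphocytes in mammals, had 134.4, 266.3 and 89.8 CPM in the miR-150 libraries and 265.9, 294.2 and 314.7 CPM in the controls. laptm5, a lysosomal membrane gene, had 127.9, 171.1 and 136.8 CPM in the miR-150 libraries and 294.9, 170.5 and 173.0 CPM in the controls. arpc1b, lcp2a and laptm5 were thus read in all 6 libraries, those without any lyz or spi1b counts included.

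ptprc encodes CD45, a phosphatase on the surface of leukocytes, and was singled out after its values were seen because its groups did not overlap. It had 189.2, 153.3 and 68.6 CPM in miR-150 replicates 1 to 3, against 226.1, 214.4 and 189.7 CPM in control replicates 1 to 3. The gap between the groups was between 189.2 and 189.7 CPM. Genes lower in all miR-150 libraries made up 5.95% of those tested. The log2 fold change was -0.62 with a standard error of 0.441 and an adjusted p of 0.988 in edgeR. Without miR-150 replicate 3, which had the lowest thrombocyte sum, it was -0.29.

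spi1b encodes the transcription factor Pu.1. It had 51 counts in miR-150 replicate 2 and 0 in the other 5 libraries. The 51 counts correspond to 2.72 CPM, with an exact 95% interval from 2.02 to 3.57 CPM for counting error, while the 3-count floor in the other libraries lay between 0.147 and 0.222 CPM. Pooled over the whole group, the spi1b level of the miR-150 libraries was 17.8-fold the floor over the controls. This ratio too leaves out counting error and the spread between libraries, and without replicate 2 both groups held 0 counts. It was not tested, having passed the count minimum in 1 library only.

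spi1a, a close relative of spi1b, and cebp1, a C/EBP gene of fish granulocytes, were picked out after their values were seen. spi1a had 2, 18 and 0 counts in miR-150 replicates 1 to 3 and 0, 4 and 0 counts in control replicates 1 to 3. cebp1 had 44 counts in miR-150 replicate 2 and none elsewhere. irf8, a transcription factor gene that directs macrophage formation, was picked out likewise and had 68 counts in miR-150 replicate 3 and none elsewhere. gfi1aa, which encodes a transcriptional repressor of blood cells, was also picked out after its values were seen. It had 10, 0 and 0 counts in miR-150 replicates 1 to 3, against 0, 53 and 40 counts in control replicates 1 to 3, so its highest values were in controls.

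cebpa encodes C/EBP alpha, which drives granulocyte formation and is also active in hepatocytes. It had 764, 308 and 648 counts in miR-150 replicates 1 to 3, and 124, 149 and 1334 counts in control replicates 1 to 3. The levels were 38.4, 16.4 and 47.9 CPM in the miR-150 libraries, against 6.50, 9.96 and 65.2 CPM in the controls. All 3 miR-150 libraries lay between the 2 low controls and control replicate 3, which held the highest value. miR-150 replicate 2, where the neutrophil genes were highest, had the lowest cebpa level of the miR-150 group.

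The mean cebpa level was 34.2 ± 16.1 CPM in miR-150 libraries and 27.2 ± 32.9 CPM in control libraries (SD, n = 3 each). The log2 fold change was 0.33 with a standard error of 0.915 and an adjusted p of 0.995 in edgeR, and its 95% interval ran from -1.82 to 2.48. This value depended on single libraries. Without control replicate 3 the log2 fold change was 1.98, with an unadjusted p of 0.0294 and an adjusted p of 0.895 in edgeR. It turned negative, at -0.13 and -0.11, without control replicate 1 or control replicate 2, and it was 0.02 without miR-150 replicate 3.

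Markers of hepatocytes were high in that same control. All 6 genes of the hepatocyte list had their highest level in control replicate 3, where their sum was 3067 CPM, against 68.3 and 22.3 CPM in control replicates 1 and 2. In miR-150 replicates 1 to 3 the sum was 29.1, 36.0 and 86.9 CPM. Its first 3 genes by mean CPM, apoa1b, tfa and fabp10a, encode an apolipoprotein, transferrin and a liver fatty acid binding protein. apoa1b had 36635 counts in control replicate 3 and between 261 and 817 in the other 5 libraries. All 4 keratins of the epidermis list were also highest there in the library with the highest keratin sum. The part of either cell type in the cebpa values was not tested.

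**Figure D3:**
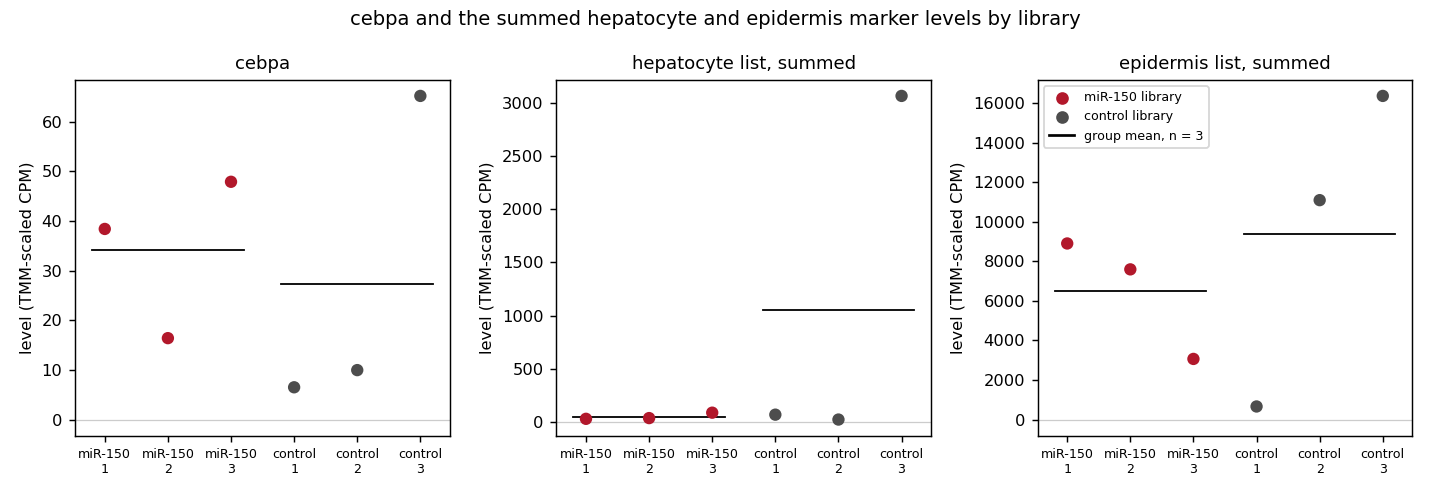
Level of cebpa and summed levels of the hepatocyte and epidermis marker lists (TMM-scaled CPM, linear axes) in each library, miR-150 libraries on the left of each panel and control libraries on the right. Points are libraries and lines are group means. Control replicate 3 is highest in all panels, at 65.2 CPM for cebpa and 3067 CPM for the hepatocyte sum.

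The 8 myeloid regulators listed could all be tied to an identifier, and 3 were tested, 1 with a positive and 2 with a negative log2 fold change, a median of -0.38 and 0 called. cebpb had the highest mean CPM among the 8, on a scale that is not per transcript length. It encodes C/EBP beta, a relative of cebpa that acts in macrophages and in inflammation. It had 336.9, 283.3 and 191.2 CPM in miR-150 replicates 1 to 3, against 572.2, 696.6 and 731.2 CPM in control replicates 1 to 3. All 3 miR-150 libraries were below all 3 controls, as for 5.95% of all genes tested.

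The log2 fold change of cebpb was -1.30 with a standard error of 0.397, an unadjusted p of 0.0129 and an adjusted p of 0.760 in edgeR, so it did not pass. In the DESeq2 Wald test its adjusted p was 0.0289. It was the 1 call among the 20 leukocyte list genes tested in edgeR, beside 1.68% of the 15127 genes with a DESeq2 adjusted p. Of the 20, npsn got no DESeq2 adjusted p. The cebpb call was lost without miR-150 replicate 2, with a DESeq2 adjusted p of 0.152, and held without miR-150 replicate 3, with 0.000265. With each library left out, the edgeR log2 fold change stayed between -1.54 and -1.10. Next by mean CPM was runx1, a gene of blood stem cells and megakaryocytes, at 30.3, 43.8 and 7.91 CPM in miR-150 replicates 1 to 3 and 49.2, 28.5 and 29.3 CPM in control replicates 1 to 3.

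The NADPH oxidase makes the oxidative burst of neutrophils and macrophages. Of the 4 subunit genes read here 3 were tested, with a median log2 fold change of -0.43 and 0 called. cyba, which encodes a membrane subunit, had 23.5, 21.5 and 4.80 CPM in miR-150 replicates 1 to 3 and 20.4, 17.4 and 29.5 CPM in control replicates 1 to 3. Its partner cybb had 4.62, 6.50 and 1.63 CPM in the miR-150 libraries and 13.1, 11.3 and 5.81 CPM in the controls. ncf1, a cytosolic subunit, had 1.96, 8.42 and 2.00 CPM in the miR-150 libraries and 4.25, 4.75 and 1.51 CPM in the controls. ncf4, another cytosolic subunit, had 50 counts in miR-150 replicate 1 and none elsewhere.

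Over the 7 genes, 4 passed the filter on low counts and were tested for a difference between genotypes. edgeR called 0 of the 4 at an adjusted p below 0.05, where it called 0% of the 15722 genes tested. At an unadjusted p below 0.05 it was again 0 of 4, beside 5.44% of all genes, and DESeq2 called 0 of 4, beside the 1.68% given above. All 4 log2 fold changes were positive and their median was 0.60, but the 3 other genes were left out by the filter and the 95% intervals all included 0. Nothing passed, yet the intervals of the 4 genes also included differences of 2-fold and more.

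**Figure D4:**
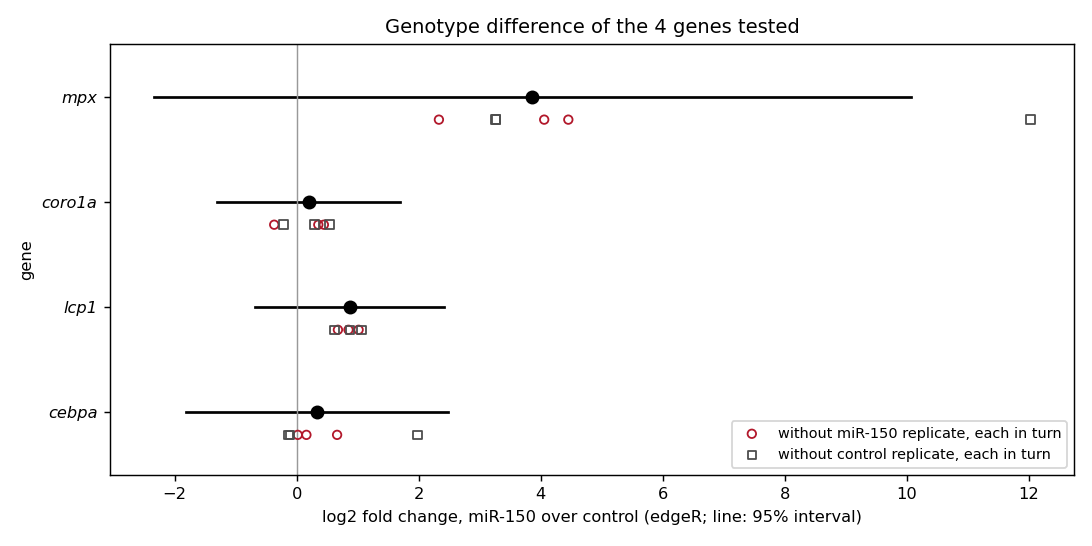
Log2 fold change of the 4 genes tested, miR-150 over control, with positive values higher in miR-150 libraries. Filled points are the edgeR estimates over all 6 libraries, lines are their 95% intervals, and open symbols are the estimates with 1 library left out. All intervals include 0. The mpx estimate of 12.03 at the far right is the one without control replicate 1, where both remaining controls are at 0 and the size of the fold has no meaning.

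The summed level of all 7 genes was 89.5, 158.2 and 83.3 CPM in miR-150 replicates 1 to 3, against 59.1, 25.7 and 107.7 CPM in control replicates 1 to 3. The group means were 110.3 ± 41.6 CPM in miR-150 libraries and 64.2 ± 41.2 CPM in control libraries (SD, n = 3 each), and the groups overlapped. What made up the sum differed between libraries. In miR-150 replicate 2, mpx and lyz gave 70.1 CPM and the pan-leukocyte pair 68.9 CPM, while in control replicate 3 cebpa alone gave 65.2 CPM and the neutrophil pair 0. These are sums of reads per gene and not per length of transcript, so long genes count for more.

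Over the 5 leukocyte lists together, with each gene counted once, 39 genes were tied to an identifier and 34 had a count. miR-150 replicate 2 held the highest level of 14 of the 34, or 41.2%, against 11.3% of all genes with a count. Leaving out the 7 genes themselves, it was 9 of 28, or 32.1%. In control replicate 3 it was 7 of the 34, where 18.1% of all genes with a count had their highest level. Of the 39 genes, 4 had counts in miR-150 replicate 2 and in no other library: mmp13a, csf3r, spi1b and cebp1. These were 11.8% of the 34 list genes with a count, beside 2.06% of the 23046 genes with a count in the whole table. The same number was 1 in miR-150 replicate 1, 2 in miR-150 replicate 3, 1 in control replicate 3 and 0 in control replicates 1 and 2. For miR-150 replicate 3 this was 5.88% of the list genes, beside 1.38% of all genes with a count. For miR-150 replicate 1 and control replicate 3 it was 2.94% each, beside 3.61% and 3.17% of all genes. The 0 of control replicates 1 and 2 stood beside 1.04% and 1.79% of all genes. Among the 20 that were tested, 1 was higher and 2 were lower in all miR-150 libraries, beside 7.64% and 5.95% of all genes tested. Without miR-150 replicate 3 these numbers were 3 and 2, beside 11.5% and 8.41% of all genes tested.

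Across the 6 libraries, the profile of lyz on the log2 CPM scale was most like those of ATP1B1, MYCBP2 and tinagl1, with Pearson correlations of 0.990, 0.981 and 0.978. Among 15722 genes ranked this way, mpx stood at place 117 with a correlation of 0.78 and lcp1 at place 174 with 0.75. coro1a stood at place 1519 with 0.5 and cebpa at place 10394 with -0.08. The genes most like coro1a were GSK3A, MRPL10 and ENSDARG00000093349, with correlations of 0.996, 0.983 and 0.974. The 15 pairs among the 6 genes with a count had a median correlation of 0.595. cebpa had correlations between -0.31 and 0.47 with the other 5. These values describe 6 libraries that also differ in depth and composition, and those of lyz and spi1b are set largely by miR-150 replicate 2.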

How the data were processed

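RNA of sorted thrombocytes was amplified with a SMARTer ultra-low-input kit and made into libraries with Nextera XT, per the labels' protocols. The authors deposited raw read counts per Ensembl gene, 1 column per library. The submitters' processing notes name STAR 2.7.10b, HTSeq 0.11.3, edgeR and the build GRCz11. The annotation, strand setting and duplicate handling are not given in the sources used here. The exact intervals and the floor of 3 counts cover counting error only, with each read taken as an independent draw. Since the RNA was amplified, several reads may stem from 1 molecule, and the exact intervals may then be too narrow. The intervals of log2 fold changes also carry the spread between libraries.

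Columns were tied to libraries by the column names in the labels. Names come from a table of identifiers and symbols that covers 29201 of the 32520 genes; for the 7 genes the zebrafish names are used, and 76 of the 91 list entries could be tied to a single identifier. No sequences or coordinates are shown.

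All genes were fitted in edgeR 4.0.16 (R 4.3.3) with filterByExpr, TMM scaling, genotype as the only term, and a quasi-likelihood test with Benjamini-Hochberg adjustment over 15722 genes, called below 0.05. Standard errors are those that give the F statistic. Alternatives were other scalings and filters, DESeq2 1.42.0, limma 3.58.1 voom with quality weights, the replicate number as a block, and each library left out. The scripts were tested on simulated counts with a smaller spread between libraries than these data, whose common biological coefficient of variation was 1.03. The simulation therefore does not show whether differences could be called in these data. No pair of libraries agreed within sampling noise. The labels call the libraries biological replicates but do not say from which clutches they came, so p-values measure the spread between these libraries.

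The 7 genes, the lists and the tests were chosen with earlier results of these data known. The lists cover neutrophils, macrophages, leukocytes in general, myeloid regulators, the NADPH oxidase, thrombocytes, erythroid cells, lymphoid cells, progenitors, hepatocytes, muscle and epidermis. Genes were named by rule: the 7, the 3 with the highest mean CPM of each leukocyte and hepatocyte list, and the 3 most like lyz and coro1a. Genes at 0 in all libraries or counted in 1 library, and npsn, spi1a, gfi1aa and ptprc, were named after their values were seen. So were hbae3, the other erythroid genes and the lymphoid genes. 1 gene of the NADPH oxidase list is not reported here and was left out of the list's counts.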

Additional observations from a re-analysis of the deposited data

How the results depend on the processing

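edgeR called 0 genes in every edgeR setting, and so did limma voom, while the DESeq2 Wald test called 254 genes. After the data were seen, DESeq2 was also run without miR-150 replicate 2, with 209 calls, and without miR-150 replicate 3, with 354. None of the 4 genes tested was called in any of the 16 alternatives, and mpx and lcp1 kept their direction in all of them. With each library left out, the calls in edgeR ranged from 0 to 0 genes, mpx from 2.33 to 12.03, coro1a from -0.37 to 0.54, lcp1 from 0.62 to 1.06 and cebpa from -0.13 to 1.98 on the log2 scale. coro1a also reversed to -0.0404 with no scaling factor and to -0.37 in DESeq2 without miR-150 replicate 2, and cebpa to -0.0135 in DESeq2 without miR-150 replicate 3; the cause was not tested.

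The difference in summed level, 46.1 CPM, ranged from 22.2 to 67.9 CPM with a library left out, and the median correlation among the genes from 0.322 to 0.652. Leukocyte list genes without overlap between groups numbered 3, and 5 without miR-150 replicate 3, a setting chosen after seeing the data; fewer libraries per group make such separation easier, as the share over all genes then rises to 11.5% higher and 8.41% lower. Same-numbered libraries had deviations that correlated at -0.192, -0.100 and -0.038, while those of unlike number ranged from -0.107 to 0.181. The values thus gave no sign of pairing by number. With 3 libraries per group, they cannot tell whether any libraries shared a clutch. With the replicate block edgeR called 0 genes, and mpx was at 5.05, coro1a at 0.18, lcp1 at 0.89 and cebpa at 0.92. For lyz, spi1b and mpeg1.1 a 0 was read against a floor of 3 counts per library, which carries depth only. In these amplified libraries mmp13a had 696 counts in miR-150 replicate 2 and 0 in each other library. mpx had 1286 counts there and 0 in 3 libraries. Loss of transcripts before sequencing was not tested, so a 0 does not bound the level in the cells.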

Other observations

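The lymphoid marker list had 7 genes with an identifier. The recombinase genes rag1 and rag2, the T cell gene cd4-1 and the antibody gene ighm had 0 counts in all 6 libraries. Its summed level was 0, 0.533 and 0.665 CPM in miR-150 replicates 1 to 3, against 5.61, 0 and 3.27 CPM in control replicates 1 to 3. ikzf1, a lymphoid transcription factor gene, gave most of that in control replicate 1, with 107 counts. lck had 17 counts in control replicate 3 and none elsewhere, and il7r had 9 counts in miR-150 replicate 3 and none elsewhere.

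The erythroid list summed to between 266.3 and 425.0 CPM in miR-150 libraries and between 186.3 and 411.2 CPM in control libraries, of which gata1a, a transcription factor gene also active in thrombocytes, gave 131.6 CPM or more in each library. hbae3, an alpha globin gene named after its values were seen, had 5.12, 41.2 and 219.5 CPM in miR-150 replicates 1 to 3, against 0.891, 2.74 and 4.0 CPM in control replicates 1 to 3. All 3 miR-150 libraries were above all 3 controls, as for 7.64% of all genes tested. Its log2 fold change was 5.12 with a standard error of 1.38 and an adjusted p of 0.758 in edgeR, so it did not pass there. DESeq2 called it, with an adjusted p of 0.00199. The call held without miR-150 replicate 2, with a DESeq2 adjusted p of 0.0094, and was lost without miR-150 replicate 3, with 0.0931. hbae1.1, the other alpha globin gene of the list, had 4.77, 7.41 and 55.5 CPM in miR-150 replicates 1 to 3. Its levels in control replicates 1 to 3 were 14.6, 11.5 and 7.03 CPM, so its groups overlapped. The groups also overlapped for the remaining list genes, alas2, epb41b and gata1a. How reads of similar globin copies were assigned is not given in the sources used here, and the part of erythroid cells in the results was not tested.

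The progenitor list summed to between 310.9 and 1520 CPM in miR-150 libraries and between 1110 and 2156 CPM in control libraries, and the 2 muscle genes to between 85.8 and 189.6 CPM in miR-150 libraries and between 56.2 and 156.0 CPM in control libraries. The neutrophil list summed to 1052, 1593 and 820.2 CPM in miR-150 replicates 1 to 3 and 2299, 1272 and 883.3 CPM in control replicates 1 to 3, so by its sum, which is mostly srgn, control replicate 1 was highest.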
